A study of Homo sapiens with 95 samples.

Results

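The transcript of FAT1 and of 9 genes of the Hippo-YAP pathway was followed in AALE cells, an immortalized line of human bronchial epithelium. The 10 genes were listed by symbol, with earlier results of these data known (FAT1, CTGF, CYR61, ANKRD1, AMOTL2, AJUBA, YAP1, WWTR1, TEAD1 and LATS2), and all 10 were found among the 23895 symbols listed for every well. Of these, 9 had at least 1 count, against 17843 of all listed genes, and AMOTL2 had none.

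Expression was measured by 3′ digital gene expression (3′DGE), which counts each captured transcript end once by its unique molecular identifier (UMI). Levels are given as CPM, the counts of a gene scaled to the total UMIs of its well. The 95 wells came from 8 populations: FAT1 and CDKN2A CRISPR knockouts, cells given the pSpCas9-EGFP plasmid PX458 with no guide (GFP), overexpression of NRF2 (NFE2L2), FGFR1, NRG1 or PIK3CA, and cells with an HcRed reporter vector (HCRED, written HcRed here). Each was exposed to DMSO, to CSC (cigarette smoke condensate) at 24 µg/ml, to BaP (benzo[a]pyrene) at 173 µM or to NNK, a tobacco nitrosamine, at 490 µM. The comparisons used the 82 wells whose replicate number had 1 digit, 3 wells in most groups. GFP cells were the stated control of the knockouts and HcRed cells that of the overexpressing populations, so no population was left untransduced or untransfected. Guide sequences, cut sites and whether a population grew from 1 clone are not given in the sources used here.

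FAT1 encodes a very large cadherin-like receptor of the cell surface. In the Hippo pathway, the kinases MST and LATS phosphorylate the co-activators YAP (YAP1) and TAZ (WWTR1) and keep them out of the nucleus. When the kinases are less active, YAP and TAZ enter the nucleus, bind TEAD factors and raise genes such as CTGF, CYR61 and ANKRD1. FAT1 is known to favour Hippo kinase activity, which raises the question of whether YAP targets move where FAT1 is lost. Among the other genes, LATS2 is both a kinase of the cascade and a YAP target, AJUBA is a LIM protein that restrains LATS, and AMOTL2 is an angiomotin that binds YAP.

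TEAD factors bind the letters GGAATG, searched on both strands, and this motif stood 3 times in the CTGF promoter and 2 times in that of ANKRD1. The 250 bases before the transcription start of both genes, from RefSeq on build GRCh38.p14, are shown because these are the textbook TEAD targets of the group, with the motif in capitals. In ANKRD1 the capitals also mark TGATTCA, which does not overlap the TEAD motifs. It matches the pattern TGANTCA, searched as a loose form of the AP-1 motif in which N is any base. Both lie on the minus strand, CTGF at chr6:131951373-131951622 and ANKRD1 at chr10:90921088-90921337.
CTGF: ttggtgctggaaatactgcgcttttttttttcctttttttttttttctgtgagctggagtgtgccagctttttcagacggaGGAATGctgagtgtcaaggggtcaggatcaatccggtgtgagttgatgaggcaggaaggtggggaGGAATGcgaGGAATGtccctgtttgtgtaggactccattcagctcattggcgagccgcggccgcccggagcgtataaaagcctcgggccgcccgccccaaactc
ANKRD1: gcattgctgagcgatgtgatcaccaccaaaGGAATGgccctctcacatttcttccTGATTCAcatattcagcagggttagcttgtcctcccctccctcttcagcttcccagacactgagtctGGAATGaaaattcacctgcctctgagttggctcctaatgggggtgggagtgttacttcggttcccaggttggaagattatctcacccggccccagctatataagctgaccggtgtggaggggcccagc
In CTGF the motifs began 169, 104 and 95 bases before the start. The motif was found in 11.9% of the 35116 promoters of the table, 2 or more copies in 0.94% and 3 or more in 0.083%, and TGANTCA in 6.57%. YAP1 had 1 match, AJUBA and AMOTL2 had 1 in 1 of their 2 promoters, and FAT1, WWTR1 and LATS2 had none in this window. CYR61 and TEAD1 were the members not found in the table.

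The 82 wells held 692446 to 1895735 UMIs each, and FAT1 cells were more deeply counted than GFP cells (medians of 1422970 and 1123371). NRG1 NNK replicate 2 stood apart from the other wells. Of the marker lists, basal and general epithelial keratins were detected in all populations, and immune, endothelial and ciliated markers were few. The 6 mesenchymal markers differed between populations under DMSO. They summed to 294 to 306 CPM in PIK3CA, 188 to 202 in FGFR1 and 135 to 161 in NRF2 wells. In HcRed wells the sum was 66.9 to 95.3 and in NRG1 wells 82.3 to 89.5. It was 16.1 to 21.6 in GFP, 12.7 to 17.75 in FAT1-cell and 10.2 to 21.6 in CDKN2A wells. CD3E was at 0 in all wells and the 4 immune markers summed to 5.04 to 39.4 CPM. VWF and CDH5 were at 0 and the 3 endothelial markers summed to at most 5.42 CPM, and FOXJ1 was at 0 and the 3 ciliated markers summed to at most 1.73. Each row of the plate held 1 chemical and each population kept its columns, so chemical or population cannot be told apart from plate position. The study calls the wells of a group biological replicates, and p-values measure the spread between these wells. Intervals and floors cover counting error only.

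FAT1 (hg19 chromosome 4, 187508948 to 187647876, minus strand) was lowest in the cells in which it had been targeted. Under DMSO the 3 wells of FAT1 cells held 0, 3.40 and 2.32 CPM, the GFP wells 7.55, 11.6 and 5.86, and the HcRed wells 17.1, 22.8 and 19.4. The 3 groups did not overlap. A 3′ tag count does not check whether the gene was cut, since an edited transcript can still be counted.

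Relative to GFP cells, FAT1 fell by 2.47 on the log2 scale under DMSO (SE 0.62, limma adjusted p = 0.0022, n = 3 against 3). It was the only one of the 8 members tested that passed under DMSO, where 14.1% of all tested genes did. Without FAT1 DMSO replicate 1, the well with no FAT1 count, the value was -1.27 (adjusted p = 0.109). The DMSO call was also lost by DESeq2. Under BaP it fell by 2.46 (SE 0.74, adjusted p = 0.0209), again the only call among the members, beside 11.6% of all genes. The BaP call was lost by DESeq2 and without FAT1 replicates 2 or 3 or GFP replicate 3, with a highest adjusted p of 0.106. Under CSC (-0.94, adjusted p = 0.207) and NNK (-1.31, adjusted p = 0.0518, and 0.0112 at the lowest among 4 alternatives that passed, 1 of them without GFP NNK replicate 2) the same gene did not pass, although under each of the 4 chemicals all FAT1-cell wells lay below all GFP wells. Over the 24 wells of both populations with chemical as a covariate, FAT1 fell by 1.67 on the log2 scale (SE 0.30, adjusted p = 6.62e-06), from 7.31 ± 2.48 to 2.33 ± 1.48 CPM (SD, n = 12 each).

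**Figure D1:**
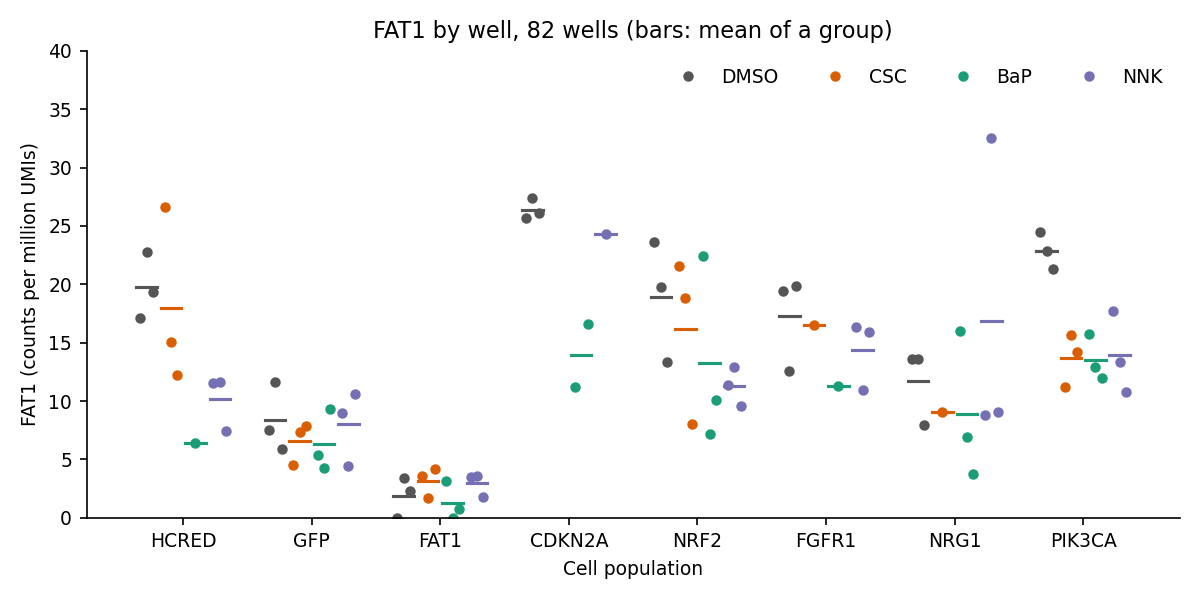
FAT1 in CPM (vertical axis) for each of the 82 wells, by cell population (horizontal axis) and chemical (colour), with a bar at the mean of each group. FAT1 cells sit at the bottom under every chemical, GFP cells next, and NRG1 NNK replicate 2 is the single highest well at 32.5 CPM.

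Across the 8 populations under DMSO, the order of FAT1 was CDKN2A (26.4 ± 0.89 CPM, SD, n = 3), PIK3CA (22.9 ± 1.62), HcRed (19.8 ± 2.86), NRF2 (18.9 ± 5.17), FGFR1 (17.3 ± 4.09), NRG1 (11.7 ± 3.28), GFP (8.35 ± 2.96) and FAT1 cells (1.9 ± 1.74). Neighbours in this order overlapped in their wells except CDKN2A over PIK3CA and GFP over FAT1 cells. The GFP cells, the control of the knockouts, were themselves below HcRed cells in FAT1, at -1.23 on the log2 scale (SE 0.30, adjusted p = 0.00389), and without GFP DMSO replicate 3 this had an adjusted p of 0.0584. Against HcRed cells, FAT1 in FAT1 cells fell by 3.69 on the log2 scale (SE 0.60, adjusted p = 2.34e-06), a call kept in all 13 alternatives.

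Of the YAP targets, CYR61 was higher in FAT1 than GFP cells over all chemicals, CTGF and LATS2 did not pass, and ANKRD1 was not tested. CYR61 (chromosome 1, 86046444 to 86050272, plus strand; now CCN1) encodes a secreted matricellular protein. Under DMSO it stood at 2.54, 3.40 and 5.4 CPM in FAT1 cells and at 4.20, 1.66 and 2.93 in GFP cells, which overlap (log2 fold change 0.33, SE 0.53, adjusted p = 0.765). Under NNK the FAT1-cell wells held 8.99, 10.1 and 11.2 CPM and the GFP wells 4.08, 2.23 and 3.53, with no overlap. CYR61 rose there by 1.60 on the log2 scale (SE 0.46, adjusted p = 0.00951), though not without GFP NNK replicate 2 or by DESeq2 (highest adjusted p = 0.052).

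Under CSC the CYR61 wells overlapped (5.02, 9.73 and 11.1 CPM against 4.49, 0.92 and 6.71), and the difference was 1.37 on the log2 scale (SE 0.50, adjusted p = 0.0585). None of the 8 members tested passed limma under CSC, where 11.2% of all genes did. By unadjusted p under 0.05 there were 2 (CYR61 and FAT1), by edgeR 1 and by DESeq2 0. Under BaP it was 1.12 (SE 0.59, adjusted p = 0.248). Over all chemicals CYR61 rose by 1.17 (SE 0.27, adjusted p = 0.000278), from 3.10 ± 1.61 to 7.01 ± 3.38 CPM (SD, n = 12 each). This call was kept in all 17 alternatives, with log2 fold changes of 0.85 to 1.38. In the same comparison, 3 of the 8 members passed, 2 higher and 1 lower, where 33.1% of all genes passed.

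CTGF (chromosome 6, 132269316 to 132272512, minus strand; now CCN2) encodes another secreted protein of the same family. It had 304 UMIs in all 95 wells, and FAT1 and GFP wells overlapped under each chemical. The 12 FAT1-cell wells averaged 1.82 ± 1.09 CPM and the 12 GFP wells 0.91 ± 0.92 (SD). The log2 fold change was -0.27 under DMSO (SE 0.86, adjusted p = 0.891), 0.82 under CSC, 1.65 under BaP, 1.19 under NNK and 0.87 over all chemicals (SE 0.41, adjusted p = 0.0931). Among the 17 alternatives over all chemicals, CTGF passed only when the DMSO wells were left out (adjusted p = 0.0426).

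ANKRD1 (chromosome 10, 92671853 to 92680844, minus strand), an ankyrin repeat protein, had 80 UMIs in all wells. It was under the mean count of 1 needed for testing in each FAT1 against GFP comparison. In GFP cells it was at 0 in all wells under CSC, BaP and NNK. Over the 12 wells of each population it averaged 0.55 ± 0.54 CPM in FAT1 cells and 0.13 ± 0.31 in GFP cells (SD). With no filter on low counts the log2 fold change over all chemicals was 0.55 (SE 0.30, adjusted p = 0.193). AMOTL2 (chromosome 3, 134074189 to 134094321) was at 0 in all 95 wells and 120624743 UMIs, which allows up to 0.0249 CPM of counted UMIs over all wells. Whether reads of AMOTL2 could be assigned to it was not tested, so the 0 does not show that the gene was silent.

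LATS2 (chromosome 13, 21547175 to 21635725, minus strand) averaged 1.64 ± 1.30 CPM in FAT1 cells and 1.36 ± 0.54 in GFP cells under DMSO, and its fold change was -0.03 on the log2 scale (SE 0.75, adjusted p = 0.984). Over all chemicals it was 0.60 (SE 0.38, adjusted p = 0.23). Under BaP the FAT1-cell wells (3.14, 3.09 and 5.71 CPM) lay above the GFP wells (2.32, 1.06 and 0.94), and the test gave an adjusted p of 0.25.

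AJUBA (chromosome 14, 23440386 to 23451760, minus strand) differed under NNK. Its FAT1-cell wells held 24.9, 23.8 and 27.0 CPM and its GFP wells 17.9, 14.5 and 15.0, with no overlap. AJUBA rose there by 0.77 on the log2 scale (SE 0.24, adjusted p = 0.0222), so that 2 of the 8 members passed under NNK, where 13.5% of all genes did. The call was lost in 4 of 13 alternatives (highest adjusted p = 0.0955), by DESeq2 and without GFP NNK replicates 2 or 3 or FAT1 NNK replicate 3. Under DMSO (-0.11, adjusted p = 0.823), CSC (0.15) and BaP (0.48) it did not pass. Over all chemicals AJUBA was 0.31 (SE 0.12, adjusted p = 0.0487), a call lost in 12 of 17 alternatives. The annotation places a protein-coding gene on the same strand over AJUBA and a pseudogene on the same strand over AMOTL2. Same-strand noncoding genes lie over LATS2, TEAD1 and WWTR1, and opposite-strand ones over FAT1, CTGF, LATS2, TEAD1, WWTR1 and YAP1. Use of strand in the counting is not stated, so reads of such pairs may not be told apart.

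The effectors and their partner did not pass in FAT1 against GFP cells under any chemical. Under DMSO the log2 fold change was -0.09 for YAP1 (SE 0.35, adjusted p = 0.913), 0.11 for WWTR1 (SE 0.28, adjusted p = 0.861) and -0.09 for TEAD1 (SE 0.24, adjusted p = 0.871). Over all chemicals it was 0.21 for YAP1 (SE 0.19, adjusted p = 0.453), -0.16 for WWTR1 (SE 0.14, adjusted p = 0.397) and -0.02 for TEAD1 (SE 0.14, adjusted p = 0.923). Hippo signalling acts on YAP and TAZ largely through phosphorylation and location, which transcript counts do not measure.

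**Figure D2:**
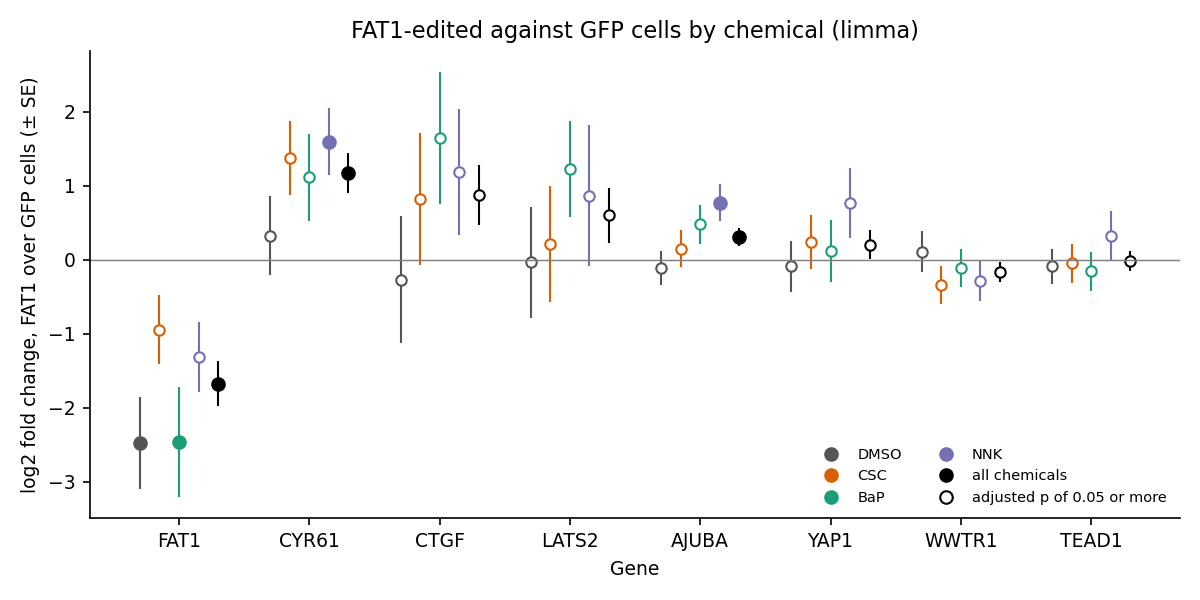
Log2 fold change of FAT1 over GFP cells (vertical axis, limma, ± SE) for the 8 members tested (horizontal axis), by chemical (colour) and over all chemicals (black). Filled points passed an adjusted p of 0.05: FAT1 under DMSO, BaP and all chemicals, CYR61 under NNK and all chemicals, and AJUBA under NNK and all chemicals.

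Whether a chemical acted differently in FAT1 than in GFP cells was tested by interaction terms. No member passed for CSC, BaP or NNK, where 0%, 0.0179% and 0.0448% of all genes did, and edgeR and DESeq2 also called 0 in each. By unadjusted p under 0.05 there were 0, 0 and 1, the last being AJUBA under NNK (interaction log2 value 0.84, limma adjusted p = 0.635). CYR61 had interaction log2 values of 1.02 (SE 0.76, adjusted p = 0.927) for CSC, 0.73 for BaP and 1.23 (SE 0.75, adjusted p = 0.801) for NNK. The rise of CYR61 in FAT1 cells from DMSO to NNK was therefore not shown to differ from the response of GFP cells. FAT1 itself had values of 1.5 for CSC, -0.04 for BaP and 1.12 for NNK, with adjusted p-values of 0.887, 0.999 and 0.822.

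Values under DMSO depended on the control. Against HcRed cells, FAT1 cells differed in 3 of 8 members, where 13.3% of all genes passed. These were FAT1, YAP1 (-0.89, SE 0.30, adjusted p = 0.0326) and LATS2 (-1.76, SE 0.60, adjusted p = 0.0366), all lower, and the YAP1 and LATS2 calls were each lost in 8 of 13 alternatives, among them without any 1 of the FAT1 wells (highest adjusted p of 0.175 and 0.224). CYR61 was also on the lower side (-1.10, SE 0.41, adjusted p = 0.0652), where against GFP cells it was on the higher side. GFP cells lay on the lower side of HcRed cells in these 4 genes as well. CYR61 (-1.44, SE 0.47, adjusted p = 0.039) and FAT1 were the 2 of 8 members called, where 10.8% of all genes were. LATS2 (-1.74, adjusted p = 0.0669) and YAP1 (-0.82, adjusted p = 0.0726) did not pass. The CYR61 call was lost in 7 of 13 alternatives, among them without any 1 of the GFP wells or HcRed replicate 1 (highest adjusted p = 0.162). These comparisons share wells, so their values are not independent of each other.

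CDKN2A knockout cells held the highest mean level of FAT1, CTGF, CYR61, YAP1 and WWTR1 under DMSO. Against GFP cells, 4 of 8 members passed and all were higher, where 17.9% of all genes passed. WWTR1 (chromosome 3, 149235022 to 149454501, minus strand), the gene of TAZ, stood at 40.7, 58.3 and 43.9 CPM in CDKN2A cells and at 16.0, 12.5 and 12.5 in GFP cells. No DMSO well of the other 7 populations exceeded 24.9 CPM. WWTR1 rose by 1.66 (SE 0.24, adjusted p = 4.13e-08), with log2 fold changes of 1.55 to 1.79 in all 14 alternatives.

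CYR61 rose in CDKN2A cells by 1.85 (SE 0.47, adjusted p = 0.00188), at 11.2, 17.3 and 8.90 CPM, all above the GFP wells. FAT1 rose by 1.57 (SE 0.30, adjusted p = 2.93e-05). YAP1 (chromosome 11, 101981178 to 102104155, plus strand) rose by 0.98 (SE 0.31, adjusted p = 0.0171), at 14.5, 25.9 and 15.9 against 9.23, 8.31 and 7.33 CPM. The YAP1 call was lost by DESeq2 and without GFP replicate 3 or CDKN2A replicate 2. CTGF stood at 3.35, 6.48 and 5.72 CPM against 0.84, 0.83 and 1.47, with no overlap, a difference of 1.76 on the log2 scale (SE 0.67, adjusted p = 0.0528). CTGF passed in 6 of the 14 alternatives, among them without CDKN2A replicate 1 (lowest adjusted p = 0.0206). Between the same groups the summed basal markers were 413 to 527 CPM in CDKN2A and 544 to 675 in GFP wells. The general epithelial and squamous markers lay the other way. They summed to 466 to 642 and 270 to 325 CPM in CDKN2A wells, and to 368 to 415 and 207 to 248 in GFP wells. The part of these differences in the members' values was not tested.

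With HcRed in place of GFP cells as the control, a comparison added after the data were seen, WWTR1 alone passed among the members (1.55, SE 0.23, adjusted p = 7.68e-08), where 14% of all genes did. CYR61 (0.40, adjusted p = 0.463), FAT1 (0.34, adjusted p = 0.369) and YAP1 (0.15, adjusted p = 0.767) did not, and CTGF was at 1.58 (adjusted p = 0.082). The higher WWTR1 thus held against both controls, and that of FAT1, CYR61 and YAP1 passed against GFP cells only. Directly compared, FAT1 cells were lower than CDKN2A cells in 5 of 8 members, where 21.4% of all genes passed. The log2 fold changes were -4.01 for FAT1, -1.99 for CTGF (adjusted p = 0.0283), -1.49 for CYR61 (adjusted p = 0.00294), -1.03 for YAP1 (adjusted p = 0.00708) and -1.52 for WWTR1 (adjusted p = 1.25e-07). The CTGF call was lost in 6 of 13 alternatives, among them each one without a FAT1 well, and that of YAP1 without FAT1 DMSO replicate 2.

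**Figure D3:**
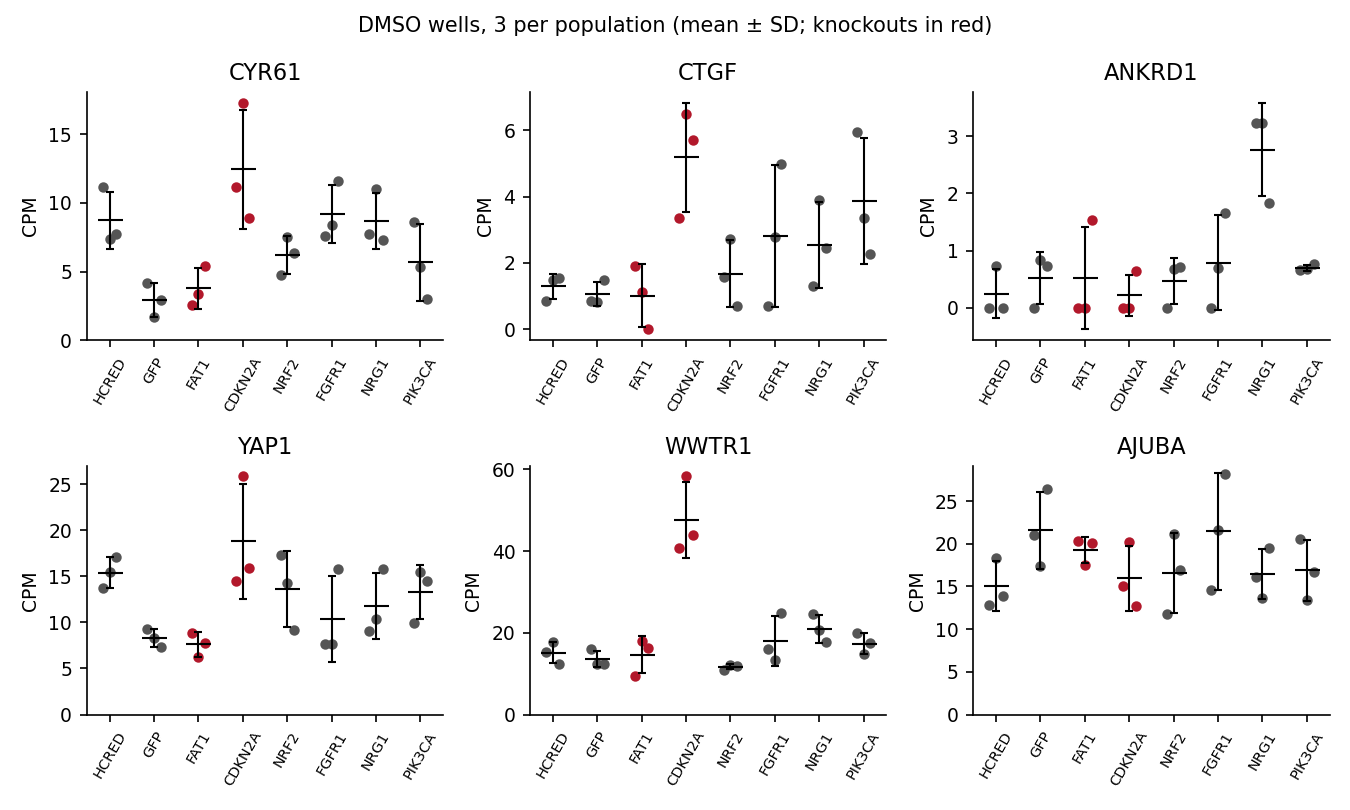
CPM (vertical axes) of 6 members in the 3 DMSO wells of each population (horizontal axes), with mean ± SD. WWTR1 in CDKN2A cells (40.7 to 58.3 CPM) lies above all other populations, ANKRD1 is highest in NRG1 cells, and the mean of CYR61 is lowest in GFP and FAT1 cells.

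In the overexpressing populations no member passed against HcRed cells under DMSO. The share of all genes that passed was 4.91% for NRF2, 0.914% for FGFR1, 3.08% for NRG1 and 5.4% for PIK3CA. By unadjusted p under 0.05 there were 1, 2, 5 and 1 members. The edgeR test called 1, 0, 0 and 0, and DESeq2 0 in each. FAT1 had log2 fold changes of -0.02 in NRF2, -0.23 in FGFR1, -0.72 in NRG1 (SE 0.26, adjusted p = 0.128) and 0.27 in PIK3CA cells. LATS2 in NRF2 cells was the call of edgeR (limma -2.39, SE 0.76, adjusted p = 0.0509), at 0.93 ± 1.08 against 5.45 ± 1.76 CPM.

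ANKRD1 in NRG1 cells was at 1.83 to 3.24 CPM under DMSO, above all wells of the other populations, of which the highest held 1.66. Against HcRed cells (0.25 ± 0.42 CPM) its log2 fold change was 2.47 (SE 0.90, adjusted p = 0.147), and with no filter on low counts it passed (adjusted p = 0.0117).

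The chemicals moved few members across populations. For CSC, fitted over 5 populations, 1 of 8 members passed, where 5.81% of all genes did. WWTR1 rose by 0.44 (SE 0.12, adjusted p = 0.0179), from 14.5 ± 3.02 to 20.0 ± 6.61 CPM, with a higher mean in 5 of 5 populations. The call was lost without the HcRed, PIK3CA or GFP population and with no filter. For BaP, again over 5 populations, FAT1 was the 1 member that passed, where 9.16% of genes did. It fell by 0.54 (SE 0.17, adjusted p = 0.0324), from 12.7 ± 8.19 to 8.66 ± 6.29 CPM, and its mean was lower in 5 of 5 populations, while wells overlapped in 4. That call was lost in 5 of 13 alternatives.

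For NNK, fitted over 7 populations, 2 of 9 members passed, where 7.22% of genes did. CYR61 rose by 0.63 (SE 0.16, adjusted p = 0.00633), with a higher mean in 4 of 7 populations. It did not pass without the NRG1 or the FAT1 population (highest adjusted p = 0.127). TEAD1 (chromosome 11, 12695968 to 12966284, plus strand), a DNA-binding partner of YAP, fell by 0.41 (SE 0.14, adjusted p = 0.0494), with a lower mean in 6 of 7 populations. The TEAD1 call was lost in 11 of 16 alternatives, among them edgeR and DESeq2 (highest adjusted p = 0.209). FAT1 was at -0.35 for CSC and -0.30 for NNK, neither of which passed.

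The NNK values include NRG1 NNK replicate 2, in which the members stood far above the other wells of its group. There TEAD1 was at 63.0 CPM against 10.2 and 6.61, CYR61 at 44.1 against 14.2 and 16.5, and FAT1 at 32.5 against 8.81 and 9.09. Without that well 4 members passed: CYR61 (0.49, adjusted p = 0.0186), TEAD1 (-0.58, adjusted p = 8.29e-05), YAP1 (-0.44, adjusted p = 0.0089) and FAT1 (-0.41, adjusted p = 0.0187). With that well YAP1 was at -0.31 (adjusted p = 0.172).

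In the wider pathway lists, the share of genes that passed between FAT1 and GFP cells over all chemicals is to be read against the 33.1% of all genes that did, 1827 higher and 1868 lower of 11165. Of the 16 tested YAP/TAZ targets 4 passed, a share below that of all genes, 3 higher and 1 lower, at a median log2 fold change of 0.22 beside 0.02 for all genes. Beside CYR61, those higher were CRIM1, a transmembrane regulator of BMP signals (0.62, adjusted p = 0.000415), and the RNA-binding protein RBMS3 (2, adjusted p = 4.22e-06). NT5E, the ecto-5′-nucleotidase CD73, was lower (-0.65, adjusted p = 0.00185). Under DMSO the list median was -0.13, and CRIM1, RBMS3 and NT5E were its 3 calls.

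Of the Hippo kinases and upstream regulators, 5 of 19 passed over all chemicals, again a share below that of all genes, at a list median of 0.12. With AJUBA, MOB1A, a LATS co-activator (0.40, adjusted p = 0.0172), and the kinase LATS1 (0.56, adjusted p = 0.0236) were higher. The upstream kinase MAP4K4 (-0.67, adjusted p = 0.00178) and AMOTL1, an angiomotin (-0.52, adjusted p = 0.012), were lower. Under DMSO none of the 19 passed limma, 3 had an unadjusted p under 0.05, edgeR called 1 and DESeq2 0. YAP, TAZ and their nuclear partners gave 0 of 8 over all chemicals by limma, edgeR and DESeq2, and 0 by unadjusted p. TEAD2 (0.65, adjusted p = 0.261) and TEAD3 (-0.58, adjusted p = 0.183) were among them. In the FAT and Dachsous family, FAT2 rose by 0.71 (SE 0.25, adjusted p = 0.0244), while FAT3 (-0.25) and FAT4 (0.56) did not pass.

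Genes that answer several pathways, some of them shared with YAP, were counted over all chemicals against the same 33.1%. Of 15 immediate early and SRF target genes, 6 were higher and 3 lower. DUSP1, a MAP kinase phosphatase (1.18, adjusted p = 2.24e-10), and EGR1 (0.89, adjusted p = 4.51e-07) were higher, and ACTB (-0.46) and TPM1 (-0.69) were lower. Of 10 TGF-beta target genes, FN1 (1.64, adjusted p = 1.46e-11) and TGFBI (0.62, adjusted p = 9.26e-10) were higher, a share below that of all genes. Of 12 proliferation genes, 5 were lower, led by TOP2A (-0.80).

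Markers of epithelial state moved with the same comparison, in which 1868 of 11165 genes were lower. Of 6 basal markers 4 were lower, with KRT14 at -2.85, and of 4 squamous markers 3 were lower, with SPRR1B at -3.13. Of the 5 general epithelial markers 4 were higher, KRT8 (0.79), KRT18 (0.56), KRT19 (0.42) and EPCAM (0.49), and CDH1 was lower (-0.45). Of the 3 mesenchymal markers tested, 1 passed, beside 33.1% of all genes, and 0 passed under DMSO. Of the 2 immune markers tested, CD68 was higher (0.49, adjusted p = 0.00859), at 13.9 ± 4.71 CPM in FAT1 cells and 10.3 ± 3.17 in GFP cells (SD, n = 12 each). Under DMSO the summed basal markers ranged from 338 to 385 CPM in FAT1 cells and from 544 to 675 in GFP cells, and the summed squamous markers from 106 to 115 and from 207 to 248. The 5 general epithelial markers summed to 482 to 522 CPM in FAT1 cells and 368 to 415 in GFP cells. The part of cell state in the difference of CYR61 was not tested. In bulk wells, a change in the share of cells of a kind and a change within each cell cannot be told apart.

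Genes whose pattern was most like that of FAT1 lay in part on its chromosome. Over the 25 groups of 3 wells, the highest Pearson correlations of group mean log2 CPM with FAT1 were those of EIF5B (0.917), CLCN3 (0.909), PPID (0.905), ACTB (0.905) and C4orf27 (0.898), of 5709 genes. CLCN3 (170533784 to 170644824), PPID (159630279 to 159644548) and C4orf27 (170650621 to 170679095) lie on chromosome 4. The correlations describe groups that share populations, and no p is given. Among members, the correlation with FAT1 was 0.36 for CTGF, 0.26 for CYR61, 0.55 for YAP1 and -0.46 for AJUBA. The 5 genes most like CTGF were GOSR2 (0.79), CLGN, IFITM2, LGALS1 and SH3KBP1, and those most like CYR61 were THBS1 (0.804), BHLHE40, SLC26A2, FN1 and SH3KBP1. CTGF and CYR61 correlated at 0.706, and at 0.649 without the NRG1 NNK group.

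The genes around FAT1 were also described, a choice made after the correlations were seen. In CDKN2A against GFP cells under DMSO, 13 of 28 tested genes within 10 Mb of FAT1 were called higher and 1 lower, at a median log2 fold change of 1.26. Over all genes the median was 0.03, and 1000 of 11575 were called higher. The median of chromosome 4 genes fell with distance from FAT1, from 0.82 between 10 and 50 Mb (82 genes) to 0.71 between 50 and 100 Mb (105 genes) and 0.37 beyond 100 Mb (217 genes). FAT1 itself was at 1.57. Against HcRed cells, 2 of 30 genes within 10 Mb were called higher and 0 lower, with medians of 0.43 within 10 Mb, 0.35 between 10 and 50 Mb, 0.39 between 50 and 100 Mb and 0.29 beyond, and FAT1 was at 0.34. Among its neighbours in CDKN2A against GFP cells, DCTD (1.80, adjusted p = 5.23e-06), SLC25A4 (1.31, adjusted p = 2.43e-06) and AGA (1.22, adjusted p = 3.41e-07) had the smallest adjusted p-values.

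In FAT1 against GFP cells most neighbours were not on the lower side with FAT1. Under DMSO the 21 genes within 10 Mb had a median of 0.32 and 4 of them were below 0, while FAT1 was at -2.47. Of the 21, 2 were called lower and 0 higher, with 14.1% of all genes called in either direction. These 2 were ZFP42 (-1.93, limma adjusted p = 0.00011) and FRG1 (-0.73, adjusted p = 0.000615). They were the only tested genes between FAT1 and the near end of the chromosome, so the positive median describes the other side. In CDKN2A against GFP cells ZFP42 was at -0.98 and FRG1 at 0.26. In GFP against HcRed cells the neighbours had a median of -0.58, with 18 of 21 below 0, and FAT1 was at -1.23. There the chromosome 4 medians were -0.52 between 10 and 50 Mb, -0.31 between 50 and 100 Mb and -0.003 beyond 100 Mb. The summed level of 30 neighbours was 296 to 302 CPM in GFP wells, 293 to 319 in FAT1-cell wells, 401 to 433 in HcRed wells and 512 to 624 in CDKN2A wells under DMSO. GFP and FAT1 cells thus overlapped in the neighbours' sum and not in FAT1, whereas HcRed and CDKN2A cells lay above both in each.

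**Figure D4:**
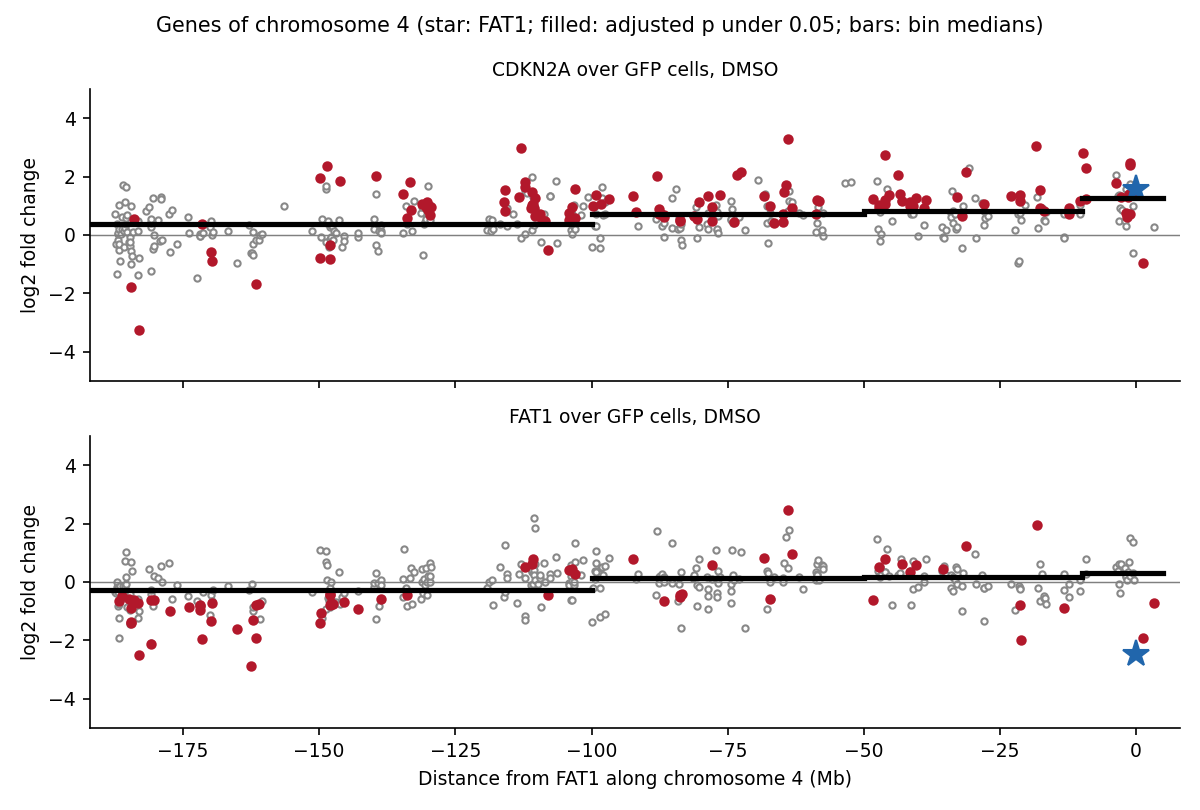
Log2 fold change under DMSO (vertical axes) of chromosome 4 genes by distance from FAT1 (horizontal axis, Mb) in CDKN2A over GFP cells (top) and FAT1 over GFP cells (bottom). The star is FAT1, filled points passed an adjusted p of 0.05, and bars are medians by distance, which in the top panel go from 0.37 at the far end to 1.26 next to FAT1.

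In CDKN2A cells WWTR1 was higher together with its surroundings against both controls, and YAP1 against GFP cells. Within 10 Mb of WWTR1, 23 of 56 genes were called higher and 0 lower against GFP cells (median 0.77), and 36 of 57 higher and 0 lower against HcRed cells (median 0.94). The 59 neighbours summed to 4599 to 4845 CPM in CDKN2A wells under DMSO and to at most 2832 in any other well. Within 10 Mb of YAP1, 32 of 70 genes were called higher and 1 lower against GFP cells (median 0.69). The 74 neighbours of YAP1 summed to 1689 to 1717 CPM in GFP wells and 1743 to 1829 in FAT1-cell wells, below the wells of the other 6 populations, of which the lowest held 2178. The mean of YAP1 itself was lowest in GFP and FAT1 cells. Elsewhere the order of YAP1 did not follow that of the sums. NRF2 wells summed to 2995 to 3134 CPM and CDKN2A wells to 2972 to 3170, while YAP1 averaged 13.6 and 18.8 CPM. HcRed cells averaged 15.4 CPM of YAP1 at a sum of 2373 to 2414.

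The neighbours of CYR61 and CTGF had smaller medians in CDKN2A against GFP cells. There the 73 genes within 10 Mb of CYR61 had a median of -0.02, with 4 called higher and 6 lower, while CYR61 was at 1.85. The 50 genes around CTGF had a median of 0.19, while CTGF was at 1.76. In FAT1 against GFP cells over all chemicals, the neighbours of CYR61 had a median of 0.20, with 26 of 72 called higher and 6 lower beside 1827 and 1868 of 11165 genes, and CYR61 was at 1.17. The part of the regional shifts in the levels of FAT1, WWTR1, YAP1 and CYR61 was not tested.

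**Figure D5:**
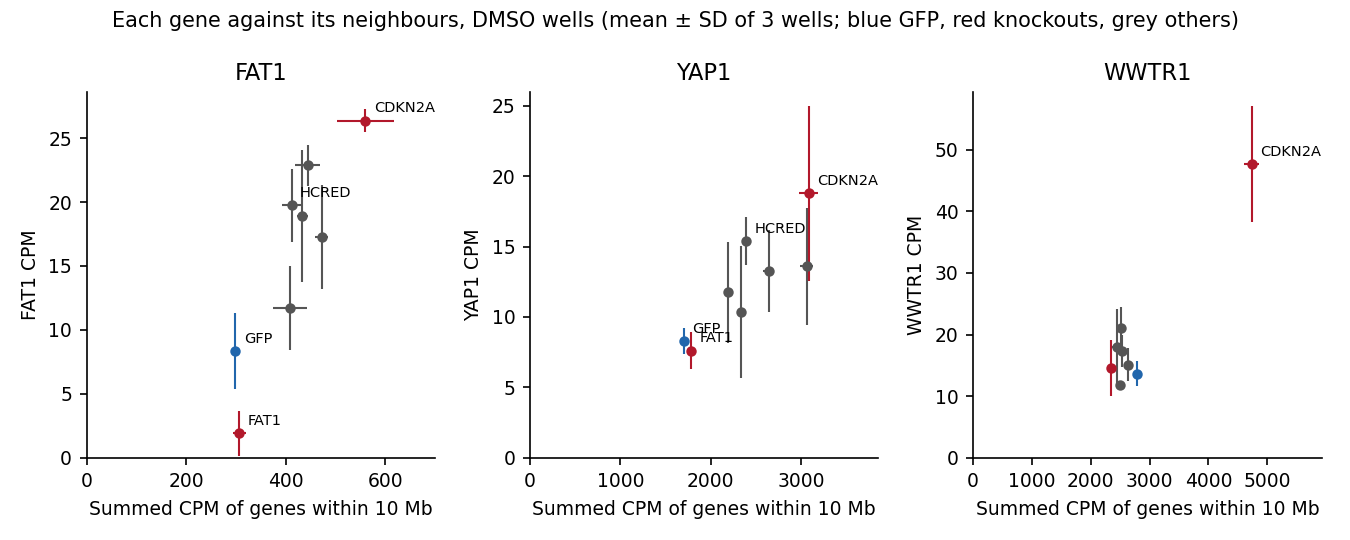
Mean CPM of FAT1, YAP1 and WWTR1 (vertical axes) against the summed CPM of genes within 10 Mb (horizontal axes), 1 point per population under DMSO, mean ± SD of 3 wells. CDKN2A cells have the highest mean of each gene, and GFP and FAT1 cells share the lowest neighbour sums for FAT1 and YAP1 while FAT1 itself differs between them.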

How the data were processed

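Wells of AALE cells were grouped by the labels' titles. The authors deposited unnormalized counts of UMIs for each gene in each well. Per the study's methods, they received them with reads placed by BWA aln (0.7.10, in the submitters' processing notes) on UCSC RefSeq hg19 transcripts and each UMI counted once per gene. In the present analysis, CPM were counts divided by the well total. Tests used limma 3.58.1 (voom, TMM factors from edgeR 4.0.16, R 4.3.3) on the compared wells, for genes with a mean count above 1, two-sided, with Benjamini-Hochberg adjustment over all tested genes and a threshold of 0.05. Chemical effects had population as a covariate. Alternatives were edgeR quasi-likelihood, DESeq2 1.42.0, other normalization, filters and pools, and wells or populations left out. DESeq2 can leave a gene of few counts without an adjusted p. Such a gene was scored as not called by DESeq2, and the highest adjusted p-values given leave it out. The code was tested on simulated data. Positions came from GENCODE on hg19, with 96.4% of 12632 genes placed, and older symbols through RefSeq synonyms. The 13 wells with 2-digit numbers were not in the main comparisons. The 10 members, the gene lists and the rule for named genes were chosen with earlier results of these data known: members always, list genes where they passed over all chemicals (at most 5 per direction) or shared a family, and the 5 genes most correlated with FAT1, CTGF and CYR61 (mean count of at least 10, prior count 2). The genes named near FAT1 were picked after their values were seen. ANKRD1, CTGF and LATS2 had 80 to 306 UMIs in all wells.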

Additional observations from a re-analysis of the deposited data

Results flagged for a closer look

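LATS2 lay on opposite sides of its DMSO wells under BaP in 2 populations. In FAT1 cells the BaP wells all lay above the DMSO wells, a mean difference of 2.34 CPM, and in PIK3CA cells they all lay below, a mean difference of -3.07 CPM. The difference between the populations was not tested. In FAT1 cells the lowest BaP well (3.088 CPM) and the highest DMSO well (3.086 CPM) both held 4 UMIs.

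Among the wells with 2-digit replicate numbers, which entered only the alternatives over all wells, both NRG1 CSC wells exceeded the NRG1 DMSO wells in WWTR1 (mean 36.2 CPM, against 17.7 to 24.6) and in CYR61 (mean 11.3 CPM, against a highest DMSO well of 11.02). The remaining NRG1 CSC well, replicate 3, lay within the DMSO range in both, at 20.5 CPM for WWTR1 and 7.58 for CYR61.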

How the results depend on the processing

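CTGF, ANKRD1 and LATS2 had the lowest counts of the members detected, and 3 wells a group left most counts of called members open to a single well. The 1371 recomputed values were member fold changes and counts of called genes. Of the member fold changes, 767 kept their direction and side of the threshold, 83 lost and 27 gained a call, and 29 changed sign. Counts of members called moved in 56 cases and stayed the same or close in 199. Counts of list genes called moved in 38 and stayed so in 172. FAT1 and CYR61 in FAT1 against GFP cells over all chemicals, and WWTR1 in CDKN2A against GFP cells, passed under every alternative run. Among these alternatives the control was exchanged only for CDKN2A cells. The causes of the changes below were not tested.

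In FAT1 against GFP cells under DMSO, CTGF was 0.068 by edgeR and 0.036 by DESeq2. LATS2 was 0.23 by edgeR, 0.31 by DESeq2, 0.028 with no filter, 0.012 in a single fit and 0.16 with the replicate block. TEAD1 over all chemicals was 0.017 in a single fit and 0.018 without the BaP wells. FAT1 in NRF2 against HcRed cells was 0.0093 by edgeR, 0.015 by DESeq2 and 0.0076 with the replicate block. Leaving out single wells under DMSO gave -0.73 to 0.36 for CTGF, -0.46 to 0.51 for LATS2, -0.23 to 0.072 for AJUBA, -0.17 to 0.086 for YAP1, -0.089 to 0.44 for WWTR1 and -0.31 to 0.13 for TEAD1. It gave -0.15 to 0.10 for TEAD1 over all chemicals, -2.01 to 1.49 and -0.18 to 1.87 for the FAT1 interaction with BaP and NNK, and -0.18 to 0.19 for FAT1 in NRF2 against HcRed cells.

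DESeq2 called 0 members in FAT1 against GFP cells under DMSO, BaP and NNK, and edgeR called 1 under CSC. FAT1 against HcRed gave 1 by DESeq2 and in a single fit, and GFP against HcRed gave 1 by these and with no filter. NRF2 gave 1 by edgeR, with no filter and with the 10000 most variable genes, and NRG1 gave 1 with no filter. CSC gave 0 with no filter or without the HcRed, PIK3CA or GFP population, and 3 with all 95 wells. BaP gave 0 by DESeq2, with no filter, in a single fit or without PIK3CA or NRF2, and 2 with all wells. NNK gave 1 by edgeR, DESeq2, median-ratio factors, no filter, the replicate block or without HcRed, PIK3CA, GFP, FGFR1 or NRF2, 0 without FAT1 cells, and 4 with all wells. CDKN2A gave 1 against HcRed. Without single wells the counts ran from 0 to 1 under DMSO, CSC and BaP and 1 to 2 under NNK for FAT1 against GFP, 1 to 2 for FAT1 and 0 to 3 for GFP against HcRed, 3 to 5 for FAT1 against CDKN2A, 0 to 1 for NRF2, and 4 for NNK without NRG1 NNK replicate 2.

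Same-numbered wells did not deviate together (correlations of -0.051 to 0.042 over 36 pairs, 0 above 0.1). No pairing by number was seen, and one smaller than the counting noise would not be seen here. With the replicate block the members called were 1 in FAT1 against GFP under DMSO, 3 under NNK and over all chemicals, 5 in CDKN2A against GFP and 1 for NNK.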

Other observations

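FAT1 was lower than in every DMSO well of its population in 5 of the 6 groups of wells with 2-digit replicate numbers. These were CDKN2A cells under CSC (15.3 to 18.7 CPM against 25.7 to 27.4) and NNK (12.2 to 14.5), FGFR1 cells under BaP (4.26 to 9.20 against 12.6 to 19.9) and CSC (9.95 to 10.9), and HcRed cells under BaP (11.2 to 16.1 against 17.1 to 22.8). In CDKN2A cells under NNK, WWTR1 held 26.6 and 35.5 CPM, below the DMSO wells (40.7 to 58.3). CYR61 also lay below its DMSO wells there (5.53 to 8.70 against 8.90 to 17.3 CPM). The same held in FGFR1 cells under BaP (3.07 to 3.20 against 7.62 to 11.6) and CSC (6.35 to 6.63), and in HcRed cells under BaP (4.03 to 6.01 against 7.35 to 11.1). CYR61 overlapped its DMSO wells in CDKN2A cells under CSC (2.87 to 12.5) and lay above them in NRG1 cells under CSC.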
